A study of Mus musculus with 147 samples.

Results

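The genes described here encode parts of the axoneme, the microtubule core of the sperm flagellum and of motile cilia. They were taken by symbol alone, as the rows of the mouse UMI count table named Dnah, Dnai or Cfap with a number, Dnal, Rsph with a number, or Drc with a number. The pattern found 56 of 31053 genes: 15 axonemal dynein heavy chains (Dnah), 3 dynein light or light intermediate chains (Dnali1, Dnal1 and Dnal4; no symbol had the form Dnai and a number), 26 cilia and flagella associated proteins (Cfap), 11 radial spoke or nexin-dynein regulatory complex subunits (Rsph and Drc) and Dnah2os, a transcript antisense to Dnah2. Their levels were followed in single germ cells of wild-type mice from E8.5 to adulthood, labelled male except at E8.5, at E9.5 and in part of E10.5, where the cells carry no sex label. All mice were offspring of C57BL/6 females and males carrying the Blimp1-mVenus and Stella-ECFP reporters (BVSC). Fetal cells were sorted on these reporters from several pooled embryos. The paper states that cells were taken by ECFP alone from E14.5, though the cell names from E14.5 to E18.5 read BVSC. Part of the E11.5 cells are named BV only. After birth each replicate was 1 mouse, and cells were picked by the look of germ cells. At PND30 cells of the same testes were also sorted by DNA content into 1N, 2N and 4N fractions. Cells labelled 2N also occur at PND14, where the pools were not split by this label. The comparisons set fetal germ cells that stop dividing (E14.5, E15.5 and E16.5) against those before it (E11.5 and E12.5). Spermatogonia (PND5, PND6 and PND7) were set against arrested prospermatogonia (E16.5, E18.5 and PND0), and testes in which meiosis has begun (PND12 and PND14) against spermatogonia. PND30 4N spermatocytes were compared with PND12 and PND14, PND30 1N cells with 4N cells, and PND30 2N cells with 1N cells.

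In an axoneme, doublet microtubules surround a central pair. Outer and inner dynein arms on the doublets slide them past each other, radial spokes carry signals from the central pair to the arms, and the nexin-dynein regulatory complex ties neighbouring doublets together and limits sliding. Motile cilia and the sperm flagellum share most of these parts but use different members for some of them: Dnah5, Dnah9, Dnah11 and Rsph4a are known from motile cilia, while Dnah8, Dnah17 and Rsph6a are known from sperm. In the testis these genes are known from spermatocytes and spermatids, in which the flagellum is prepared and built.

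Of 9640 cells read, 9400 passed the filter on genes and UMIs and 8466 were counted as germ cells, because their germ cell markers reached 50 CPM (counts scaled to 1000000 UMIs) and exceeded the sum of 23 somatic markers. Of the germ cells 219 lay within a factor of 2 of the cut, and 70 cells lay just below it. UMIs were summed by time-point and replicate into pools, and 57 of 59 pools were used, with 25 to 447 germ cells and 11391996 to 187788707 UMIs each. At E8.5, replicate 1 held 0 germ cells by these markers and replicate 3 held 7, so neither was used. Each UMI marks the 3' end of 1 molecule, so CPM were compared between genes without a length correction. Pools of PND12, PND14 and the adult did not match within their time-point: the summed level of the 56 genes was 992 and 4729 CPM at PND12, 1329 and 3915 at PND14, and 4408 and 10537 in the adult. Somatic marker levels were not the same in all groups and are given beside each comparison. The 96 cell barcodes were reused between libraries, and none was repeated within a library.

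The genes were expressed in 2 waves, 1 before birth and 1 in meiosis. Their summed level was 680.8 ± 14.1 CPM at E11.5 and 677 ± 41.1 at E12.5 (mean ± SD, n = 2 pools). It stood at 1160 ± 161 CPM at E14.5, 1835 ± 319 at E15.5, 1993 ± 85.98 at E16.5 and 2352 ± 10.96 at E18.5. After birth it was 2146 ± 149 CPM at PND0, 1223 ± 246 at PND2 and 723 ± 1.6 at PND5. It then reached 11583 ± 464 CPM in PND30 4N cells, 10197 ± 451 in 2N cells and 9169 ± 1146 in 1N cells. Of the 56 genes, 15 had a mean of at least 5 CPM at E12.5, 46 at E18.5, 19 at PND5 and 52 in 4N cells, so most of the genes were detected before birth. The highest mean lay in 4N cells for 22 genes, in 1N cells for 12, at PND35 for 10 and in 2N cells for 7. For the remaining 5 it lay around birth, and besides Dnah2os (PND2) these were the cilia-type members: Dnah5 and Rsph4a at E18.5, Dnah9 at PND0 and Dnah11 at PND1.

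**Figure D1:**
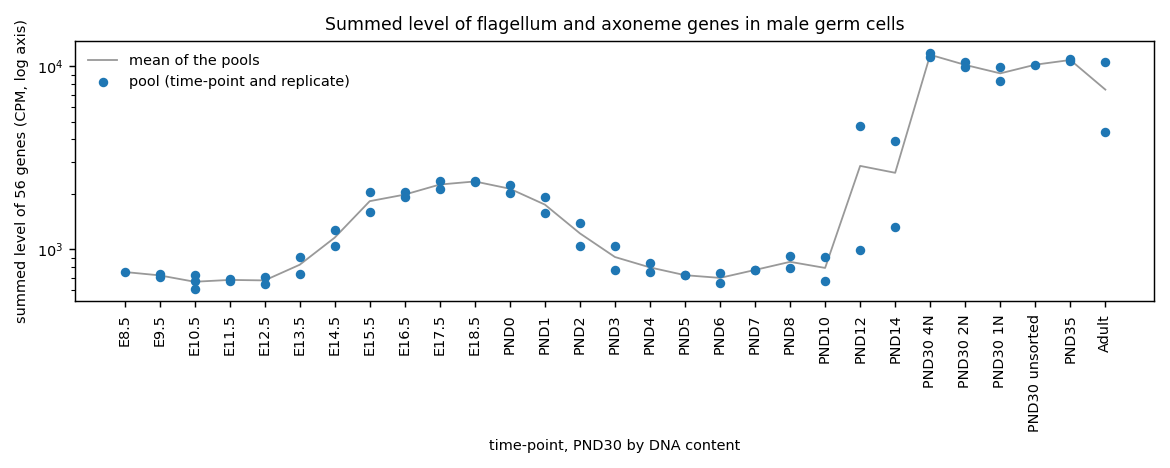
Summed level of the 56 genes in CPM (vertical axis) by time-point (horizontal axis), with a point for each pool and a line through the means; the vertical axis is logarithmic. The points rise from about E13.5 to E18.5, where both pools lie at 2344 and 2359 CPM, fall to between 657 and 774 CPM from PND5 to PND7, and lie between 8359 and 11911 CPM in the sorted fractions of PND30.

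**Figure D2:**
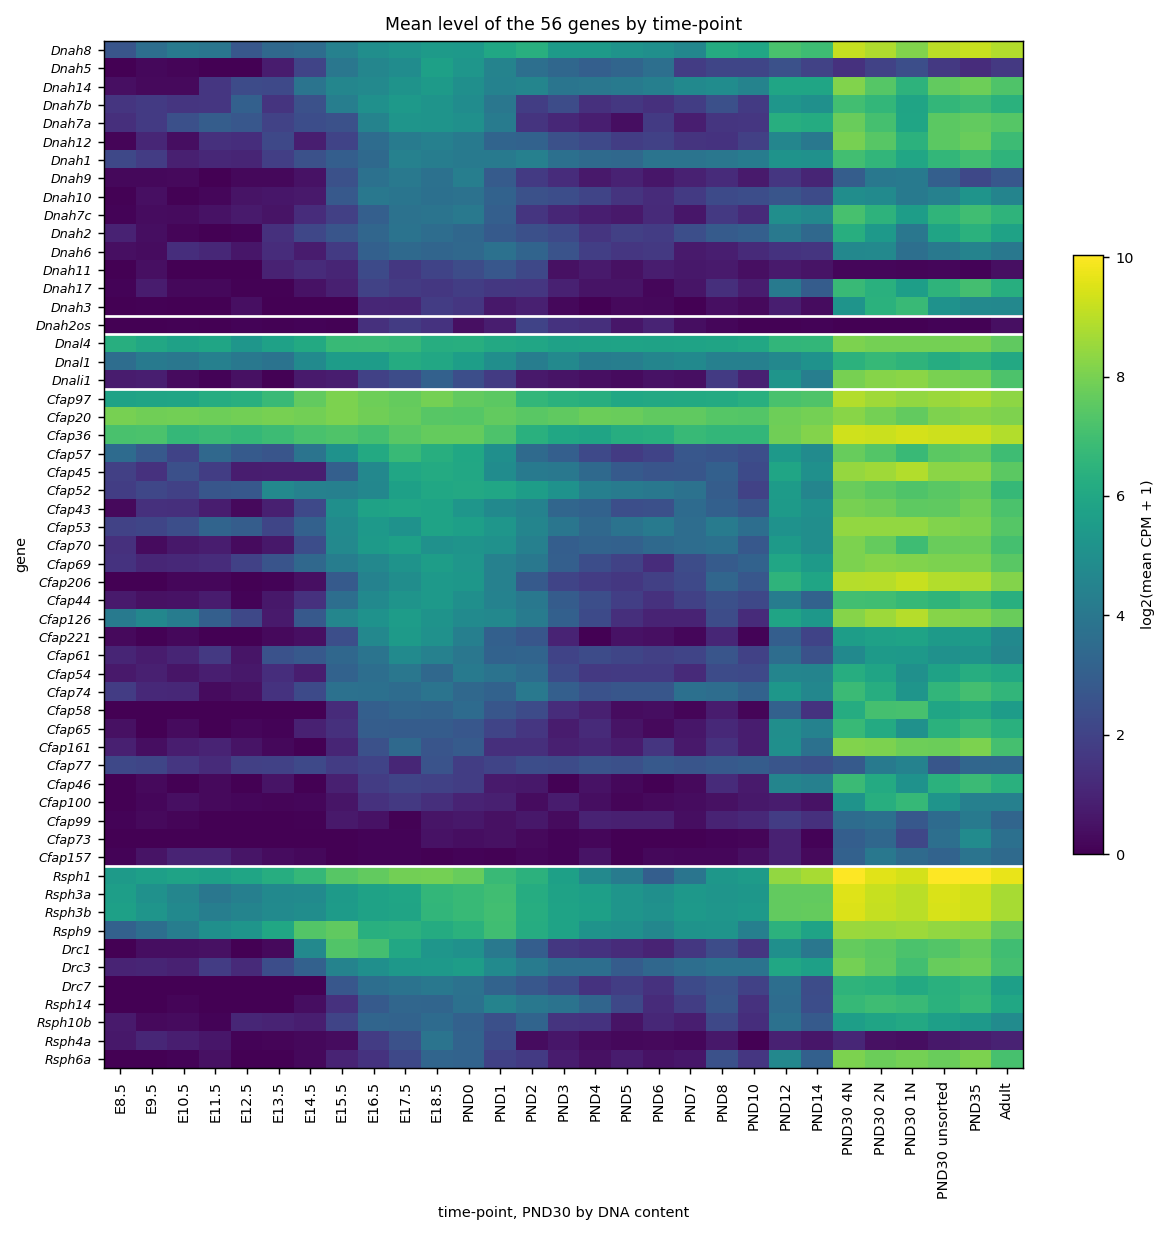
Mean level of each of the 56 genes (rows) at each time-point (columns), as colour on the scale log2(CPM + 1). Most rows brighten first around E15.5 to PND1 and again from PND12 on, and Cfap20, Cfap36 and Cfap97 stay bright throughout.

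A few genes were never low. Cfap20, a protein of the doublet microtubules, lay between 136.8 and 315 CPM in all 57 pools. Rsph1, a subunit of the radial spoke head, had the highest level of all members in 4N cells, at 1032 and 1068 CPM, against 12.6 ± 5.12 CPM in spermatogonia (n = 6). In 1N cells the highest levels were 671 CPM for Rsph1, 668 for Cfap36 and 590 for Cfap206, and among the dyneins 282 for Dnah8, 109.1 for Dnah3, 317 for Dnali1 and 242 for Dnal4. At E14.5 to E16.5 the order differed, with Cfap20 at 245 CPM, Cfap97 at 230, Rsph1 at 156, Rsph9 at 143.5, Dnal4 at 95.3, Dnal1 at 39.8, Dnah14 at 20.9 and Dnah8 at 20.4. Rsph3a and Rsph3b are near-identical copies, and their values followed each other pool by pool (716 and 776 against 707 and 762 CPM in 4N cells), so how reads are split between them is uncertain. The same holds for Dnah7a, Dnah7b and Dnah7c, and Dnah2os overlaps Dnah2 on the opposite strand with no statement of strand in the counting.

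The promoters of some members carry the letters that regulatory factor X (RFX) proteins bind at each end of the X-box, a site known from ciliary genes. RefSeq promoters on GRCm38.p6, 250 bases before to 50 bases after each start site, were found for 45 of the 56 genes. GTTGCC, or GGCAAC on the other strand, stood in the promoters of 13 of these genes (28.9%) and of 2759 of all 19407 genes with a promoter (14.2%). With 1 free base (GTTNCC or GGNAAC, which includes the former) the shares were 68.9% and 49.3%. For the cyclic AMP response element TGACGTCA they were 2.22% and 2.51%, and for its core TGACG, or CGTCA on the other strand (both part of the former), 17.8% and 25.5%. Among genes that rose in fetal arrest GTTGCC was found in 6 of 29 with a promoter, and among the others in 7 of 16. Stretches upstream of 5 start sites are shown as examples. Their genes rose at 1 or more of the steps described next, as did other genes with a match, among them Dnah7b, Dnah10 and Cfap161. The stretches have the matching letters in capitals, and each is read in the direction of its gene. They lie at chr5:30281333-30281392 (plus strand, ending at the start site of Drc1), chr1:53706952-53707011 (minus, 167 bases from the start of Dnah7a), chr1:46425272-46425331 (plus, 186 bases from Dnah7c), chr16:44394739-44394798 (plus, ending at Cfap44) and chr19:47937626-47937685 (plus, 26 bases from Cfap58). Dnah7a and Dnah7c carry similar stretches around the match.
Drc1: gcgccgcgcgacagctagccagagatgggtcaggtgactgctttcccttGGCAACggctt
Dnah7a: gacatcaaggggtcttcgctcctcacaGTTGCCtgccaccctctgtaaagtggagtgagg
Dnah7c: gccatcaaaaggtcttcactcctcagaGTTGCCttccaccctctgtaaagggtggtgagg
Cfap44: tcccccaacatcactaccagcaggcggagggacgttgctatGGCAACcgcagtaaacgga
Cfap58: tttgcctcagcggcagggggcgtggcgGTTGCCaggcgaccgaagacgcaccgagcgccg

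When fetal germ cells stopped dividing, axoneme genes of all 4 protein classes rose. Drc1, the scaffold subunit of the nexin-dynein regulatory complex (chr5:30281388-30366695, plus strand, mm10), went from 19 UMIs over 4 pools to 104.2 ± 70.4 CPM (n = 6), and outer arm, inner arm, spoke and central apparatus genes rose with it. In edgeR's quasi-likelihood test, with p-values adjusted over all 27676 genes tested, 35 of the 56 rose and 1 fell at an adjusted p under 0.05. Over all genes 21.6% rose and 12.4% fell. The median log2 fold change was 2.39 for the 56 genes and 0.62 for all genes. The 35 were 16 of 26 Cfap genes, 10 of 15 heavy chains, 2 of 3 light chains and 7 of 11 spoke and regulatory complex genes. The gene that fell was Cfap157, from 0.751 ± 0.341 (n = 4) to 0.0749 ± 0.0825 CPM (n = 6), named after its values were seen.

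Drc1 was at 0.0494 and 0.686 CPM at E11.5 and at 0 in both pools of E12.5. It was at 39.7 and 11.4 CPM at E14.5, 198 and 115.7 at E15.5, and 100.7 and 159 at E16.5, and the 2 sides did not overlap. Summed over pools this was 599-fold higher (adjusted p = 7.94e-09, edgeR), and 4429-fold without E11.5 replicate 2, which held 17 of the 19 earlier UMIs. Where all pools of a time-point were at 0, as here, the fitted log2 fold change depends on the prior count of the fit, and the ratio of summed levels is given instead.

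Among the dynein arms, Dnah5, an outer arm heavy chain of motile cilia (chr15:28203752-28472052, plus strand), had 2 UMIs in the 4 earlier pools, at 0.0494 CPM in 1 pool and 0 in 3. In the 6 later pools it lay between 2.25 and 33.8 CPM with a median of 10.6, and the ratio of summed levels was 754 (95% exact interval 209 to 6231, counting error only; adjusted p = 2.64e-08, edgeR). Without E11.5 replicate 1, which held both UMIs, it was at least 320.3-fold. Dnah2, an inner arm heavy chain, rose from 0.0486 ± 0.0683 to 5.93 ± 2.94 CPM (log2 fold change 6.69 ± 0.826 SE, adjusted p = 1.24e-07, edgeR). These heavy chains thus went from next to nothing to low levels. Dnah9, the partner of Dnah5 in the outer arm, rose from 0.0877 ± 0.0756 to 5.86 ± 5.78 CPM (5.21 ± 0.703). The light chains Dnal1 and Dnal4 were present before and rose by less, with log2 fold changes of 1.00 ± 0.305 and 0.82 ± 0.222. Dnal1 did not pass without E12.5 replicate 2 (adjusted p = 0.05835, edgeR) or with the stricter marker rule (adjusted p = 0.05085, edgeR).

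Among Cfap genes, Cfap221, a central apparatus protein, was at 0 in all 4 earlier pools and between 0.0681 and 32.4 CPM in the later ones with a median of 4.31, which is at least 318-fold higher against a floor of 3 counts over the earlier pools. The bound was 180-fold without E16.5 replicate 1 and 202-fold without E11.5 replicate 1, and the gene did not pass with bias-adjusted quasi-dispersions (adjusted p = 0.142, edgeR). Drc7, Rsph14 and Cfap58 were also at 0 in all earlier pools, and with the bounds of these 4 genes the median over the 56 stayed at 2.39. Cfap43, of the complex that tethers the inner arm dynein heads, rose from 0.474 ± 0.472 to 29.7 ± 24.1 CPM (5.38 ± 0.836). Cfap70 rose from 0.486 ± 0.349 to 24.5 ± 18.7 CPM (5.17 ± 0.903). Drc3, of the regulatory complex, rose from 1.87 ± 1.37 to 20.1 ± 10.8 CPM (3.13 ± 0.492), and the spoke head gene Rsph9 from 34.2 ± 4.16 to 143.5 ± 59.6 CPM (1.83 ± 0.374). The adjusted p of these genes, all by edgeR, lay between 5.53e-07 and 0.0102.

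Genes that build or attach the dynein arms but do not bear these symbols were counted in the same comparison. Of 18 dynein assembly and docking genes 7 rose, among them Ccdc40, part of the ruler that sets arm spacing, from 0.113 to 23.2 CPM. Of 11 dynein and regulatory complex subunits under other names 6 rose. Of 16 central pair and microtubule inner proteins 10 rose, among them the tektin Tekt1 from 0.183 to 78 CPM. The fibrous sheath and outer dense fibre list had 3 of 13 rise, Ropn1l from 1.90 to 90.8 CPM among them, and 1 fall. Intraflagellar transport, which carries parts into growing cilia, was divided, with 9 of 26 up and 2 down, and Ift52 fell from 92.7 to 35.6 CPM. Of 12 cytoplasmic dynein genes 4 rose and 1 fell. Foxj1, the regulator of motile cilia, was at 0.319 ± 0.387 and 0.607 ± 0.509 CPM and did not pass the test (adjusted p = 0.851, edgeR), Rfx2, an RFX factor of spermatogenesis, fell from 15.05 to 5.64 CPM, and Gmnc, a regulator of multiciliated cells, fell from 6.14 to 0.0461 CPM. Of all 12 regulators of the list 3 rose and 2 fell. Levels are given here only for regulators that were lower or did not pass, so they do not stand for the list. Foxj1 and Rfx2 were named outside the rule by which other genes were named. Taf7l, among those that passed, is also a germ marker used to choose cells up to PND14, and the regulator list holds it in every comparison.

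The summed level of the 23 somatic markers differed between the sides, with 345.9 CPM (74.5 to 821) in the later pools against 44.1 (30.2 to 55.2). Much of it was Afp, which was at 198 ± 147.2 CPM against 0.548 ± 0.751, and of the somatic lists 1 of 6 Sertoli, 1 of 4 Leydig, 3 of 6 interstitial and 1 of 3 endoderm markers rose, while 3 of 7 globins fell. Their part in the rise was not tested. By the paper's account the sort gate changed together with the stage, and its part was not tested either. No time-point of this comparison had 10 cells left out by the marker rule as somatic, but later ones did. At PND0, 37 such cells of the same pools had a summed level of 705 CPM over the 56 genes against 2146 in germ cells, with Drc1 at 0 against 33.1 CPM, Dnah5 at 1.51 against 37.8, Rsph1 at 14.6 against 207 and Cfap57 at 4.30 against 61.6. Cfap20 was alike in both, at 159 and 168 CPM. At E17.5 the 25 cells left out had 668 CPM against 2262. With bias-adjusted quasi-dispersions, a setting of edgeR chosen after seeing the data, 21 of the 56 genes rose and 0 fell. The share of all genes called was not counted in that fit.

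In spermatogonia most of these genes were back at low levels. Of the 56 genes 45 were lower in PND5 to PND7 spermatogonia than in prospermatogonia and 2 were higher, where over all genes 31.8% were lower and 18.8% higher. The median log2 fold change was -2.33, against -0.65 over all genes. All classes fell: 21 of 26 Cfap genes, 12 of 15 heavy chains, 2 of 3 light chains and 10 of 11 spoke and regulatory complex genes. The genes that were higher, Cfap77 (5.27 ± 0.944 against 3.5 ± 1.70 CPM) and Cfap20 (198 ± 15.6 against 191 ± 33.2), did so by little with pools that overlapped, and 0 were higher in DESeq2, with RLE scaling or without the marker rule. They were named after their values were seen.

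Rsph1 lay between 168 and 251 CPM in the 6 prospermatogonia pools with a median of 216, and between 6.55 and 19.2 with a median of 12.8 in the 6 spermatogonia pools (log2 fold change -3.83 ± 0.397 SE, adjusted p = 2.6e-09, edgeR). Drc1 fell from a median of 44.9 CPM (21.3 to 159) to 1.34 (0.914 to 2.14), with a log2 fold change of -4.92 ± 0.63. Neither gene's groups overlapped. Rsph4a, the spoke head subunit of cilia, fell from 7.97 ± 6.15 to 0.162 ± 0.121 CPM (-4.97 ± 1.07). Among heavy chains, Dnah7a, an inner arm chain, fell from 29.6 ± 8.49 to 1.12 ± 1.41 CPM (-4.83 ± 0.567), Dnah7c from 12.1 ± 4.41 to 0.808 ± 0.474 (-3.59 ± 0.604) and Dnah9 from 14.46 ± 3.91 to 0.792 ± 0.369 (-3.81 ± 0.506). In spermatogonia each of them was at about 1 CPM. Cfap221 fell from 25.5 ± 8.89 to 0.296 ± 0.236 CPM (-6.21 ± 1.06), Cfap58 from 8.65 ± 2.14 to 0.211 ± 0.228 (-5.21 ± 0.97) and Cfap126 from 31.8 ± 5.59 to 1.19 ± 0.594 (-4.38 ± 0.696). Dnal1 fell the least of those named, from 52.4 ± 13.2 to 22.5 ± 3.82 CPM (-0.87 ± 0.266), and with the stricter marker rule its change of -0.52 did not pass (adjusted p = 0.212, edgeR). The adjusted p lay between 2.6e-09 and 0.00688 (edgeR). Dnah5 was among those that kept some UMIs, at 2.18 to 17.7 CPM in spermatogonia against 13.4 to 57.3, and its groups overlapped.

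The wider gene lists were divided in the same comparison. Of the central pair and microtubule inner proteins 13 of 16 fell and 1 rose, of the other dynein and regulatory complex subunits 9 of 11 fell and 1 rose, of assembly and docking genes 10 of 18 fell and 2 rose, and of fibrous sheath and outer dense fibre genes 5 of 13 fell and 2 rose. Spag6l, of the central pair, went from 29.5 to 0.622 CPM, and Armc4, which docks outer arms, from 11.9 to 0.293. Of the 12 regulators 7 fell and 1 rose, with Rfx2 from 5.76 to 1.25 CPM and Mybl1 from 18.2 to 3.20. Intraflagellar transport had 8 of 26 lower and 6 higher, Ift52 rising from 12.02 to 65.2 CPM, and cytoplasmic dynein had 2 of 12 lower and 5 higher. Somatic markers summed to 622 CPM (422 to 771) in spermatogonia and 794 (480 to 1112) in prospermatogonia. No Sertoli, Leydig, interstitial or endoderm marker changed, 1 of 4 endothelial and macrophage markers fell, and 4 of 7 globins fell. Part of the prospermatogonia pools, E16.5, were also in the fetal comparison.

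At PND12 and PND14, when meiosis has begun, the genes rose again. Against spermatogonia 41 of the 56 rose and 0 fell, where over all genes 18% rose and 2.95% fell. The median log2 fold change was 2.65, and 0.26 over all genes. The 41 were 22 of 26 Cfap genes, 9 of 15 heavy chains, 2 of 3 light chains and 8 of 11 spoke and regulatory complex genes. The spermatogonia pools are those of the comparison before. The count rests on 1 pool more than on the others: without PND12 replicate 2 it was 25. By edgeR 0 members had an unadjusted p under 0.05 with a lower level, and DESeq2 also called 0 down.

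Rsph1 was at 70.8 and 607 CPM at PND12 and at 155 and 691 at PND14, and in spermatogonia at 6.55 to 19.2 (log2 fold change 5.38 ± 0.439 SE, adjusted p = 2.95e-10, edgeR). Replicate 2 was the higher at both ages. Dnah7a was at 13.2 and 140 CPM at PND12 and at 21.5 and 122.01 at PND14, against 0.188 to 3.92 (6.92 ± 0.633, adjusted p = 2.83e-09). Even the lower pools lay above all pools of spermatogonia. Dnali1, the light intermediate chain of inner arms, was at 4.01 and 68.3 CPM and then at 2.93 and 34.6, against 0.0575 to 0.554 (6.73 ± 0.958). Dnah17, the sperm outer arm heavy chain, was at 11.2 ± 14.3 CPM (n = 4) against 0.350 ± 0.192 (n = 6; 5.51 ± 0.746), and Dnah7b at 34.8 ± 27.1 against 2.09 ± 0.975 (4.41 ± 0.531). Cfap65 was at 25.5 ± 26.7 against 0.384 ± 0.195 CPM (6.54 ± 0.79), Cfap126 at 48.5 ± 53.3 against 1.19 ± 0.594 (5.74 ± 0.758) and Cfap69 at 52.2 ± 46 against 2.82 ± 1.52 (4.68 ± 0.533). Rsph6a, the sperm spoke head subunit, was at 16 ± 19.4 against 0.547 ± 0.219 CPM (5.05 ± 0.793) and Drc1 at 23.1 ± 26.7 against 1.47 ± 0.504 (4.33 ± 0.637). Dnal4 rose least of those named (1.10 ± 0.213), and without PND12 replicate 2 its change of 0.60 did not pass (adjusted p = 0.0634, edgeR). Cfap73, a docking factor of an inner arm, was at 0 in all spermatogonia pools and was at least 34.3-fold higher, against a floor of 3 counts over those pools. Most of its 120 UMIs lay in PND12 replicate 2, without which the bound was 7.16-fold, and without PND14 replicate 1 it was 54.5-fold.

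The comparisons of fetal arrest and of entry into meiosis share no pool, and 28 genes rose in both, which is 80% of the 35 and 68.3% of the 41. Of all 56 members 73.2% rose at entry into meiosis, so the share among those of fetal arrest lay near that of the members as a whole. Genes that rose in fetal arrest alone were Cfap99, Dnah10, Dnah11, Dnah5, Dnah9, Dnal1 and Rsph14. This was not a test of a difference between the waves. Of the other lists, the genes that rose at entry into meiosis were 15 of 18 assembly and docking genes, 9 of 11 other subunits, 15 of 16 central pair and inner proteins with 1 lower, 11 of 13 fibrous sheath and outer dense fibre genes, 24 of 26 intraflagellar transport genes, 6 of 12 cytoplasmic dynein genes and 5 of 12 regulators. Zmynd10, an assembly factor, went from 0.694 to 99.2 CPM, Ttc26 from 4.63 to 37.6 and Rfx2 from 1.25 to 35.6. Somatic markers summed to 407 CPM (146.97 to 809) against 622 in spermatogonia, with 1 of 6 Sertoli and 1 of 4 Leydig markers higher and 0 of the interstitial, endothelial, macrophage, endoderm and globin markers changed. At PND12 the 76 cells left out by the marker rule had 814 CPM over the 56 genes, against 2860 in germ cells.

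In PND30 4N spermatocytes the genes rose further, to the highest summed level of the series. Against PND12 and PND14, 49 of the 56 rose and 0 fell, where over all genes 26.3% rose and 25.1% fell. The median log2 fold change was 2.65, and 0 over all genes. All 3 light chains, 23 of 26 Cfap genes, 13 of 15 heavy chains and 10 of 11 spoke and regulatory complex genes rose. With only these 6 pools in the fit the count was 16, and the share of all genes called in that fit was not counted. DESeq2 called all of the same 49, and called 0 down, as was the case at an unadjusted p under 0.05 (edgeR).

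Dnah3, an inner arm heavy chain, was at 50.5 and 21.5 CPM in 4N cells and between 0 and 1.59 in the 4 earlier pools (log2 fold change 6.36 ± 1.29 SE, adjusted p = 0.000194, edgeR). Cfap100 and Cfap73, which together dock an inner arm dynein, were at 52.1 and 17.7 CPM and at 6.49 and 7.66 CPM, against 0 to 1.39 and 0.0428 to 1.42 (6.13 ± 1.36 and 5.13 ± 1.20). All 3 genes were below 2 CPM in every pool of PND12 and PND14, though Cfap73 had passed the test against spermatogonia. Rsph6a was at 286 and 251 CPM against 1.63 to 44.2 (4.46 ± 0.948). Dnah12 reached 250 ± 27.9 CPM from 19.3 ± 15.9 (3.93 ± 0.626) and Dnah6 24.7 ± 0.137 from 1.84 ± 1.6 (3.90 ± 0.97). Cfap58 reached 73.4 ± 28.7 from 4.72 ± 4.16 CPM (4.52 ± 1.16), Rsph14 104.1 ± 19.6 from 7.41 ± 9.24 (4.12 ± 1.04) and Drc7 91.2 ± 4.06 from 7.76 ± 10.4 (3.89 ± 0.919). The light chains were at 253 ± 13.2 for Dnali1 (3.42 ± 1.03), 87.5 ± 3.19 for Dnal1 (1.88 ± 0.38) and 266 ± 8.87 CPM for Dnal4 (1.72 ± 0.278). Adjusted p lay between 6.16e-06 and 0.00633 (edgeR). With only the 6 pools of this comparison in the fit, Dnali1, Dnal1, Dnal4, Dnah6, Cfap58, Rsph14 and Drc7 did not pass (adjusted p between 0.0508 and 0.0919, edgeR).

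Of the genes up in 4N cells 32 had also risen in fetal arrest, which is 91.4% of the 35 of fetal arrest and 65.3% of the 49. Of all 56 members 87.5% rose in 4N cells, again a share near that among those of fetal arrest. These comparisons share no pool, while PND12 and PND14 are in both meiotic comparisons. The genes that rose in fetal arrest but not here were Cfap54, Dnah11 and Dnah5. Of the other lists, all 11 other subunits and all 16 central pair and inner proteins rose, with Dnaic2, an outer arm intermediate chain, going from 2.87 to 121.5 CPM and Tekt3 from 12.7 to 291. Fibrous sheath and outer dense fibre genes rose in 12 of 13, Fscb from 0.448 to 42.5 CPM. Of the rest 14 of 18 assembly and docking genes, 16 of 26 intraflagellar transport genes, 6 of 12 regulators (1 fell) and 4 of 12 cytoplasmic dynein genes (2 fell) rose. Rfx2 stood at 160 ± 6.60 CPM and Foxj1 at 10.6 ± 12.1. Somatic markers summed to 19.9 CPM in 4N cells against 407, and 6 of 6 Sertoli, 3 of 6 interstitial and 1 of 3 endoderm markers fell with 1 of 7 globins. Their part in the result was not tested.

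In 1N cells, after the meiotic divisions, the genes were still at high levels. Whether single members differed from 4N cells depended on the fit. No member passed the test against 4N cells: 0 rose and 0 fell, 4 had an unadjusted p under 0.05 (1 higher and 3 lower, edgeR), and DESeq2 called 2 up and 1 down. Over all genes 5.2% rose and 9.84% fell. The 1N and 4N pools of the same number come from the same testis, and with the replicate as a block 8 of 54 members tested rose and 16 fell, where over all genes 24.1% rose and 17.1% fell. The median log2 fold change was -0.36 without the block and -0.29 with it, against 0 and 0.16 over all genes. RLE scaling moved all genes by 0.34 in this comparison and turned the members' median to 0.08, still 0.25 below that of all genes.

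The genes named next are those that passed with the block, named after their values were seen. Those lower in 1N cells were 9 heavy chains, 6 Cfap genes and Drc3, and those higher were 5 Cfap genes and 3 heavy chains. Dnah2 was at 17.8 and 11.96 CPM in 1N against 66.3 and 87.5 in 4N cells (blocked log2 fold change -2.15 ± 0.421 SE, adjusted p = 4.57e-06, edgeR). Dnah8, the most abundant heavy chain, was at 285 and 279 against 453 and 693 CPM (-0.78 ± 0.250, adjusted p = 0.00698). In both genes the groups did not overlap. Dnah7a, Dnah14, Dnah12 and Dnah17 were lower by 1.65, 1.46, 1.33 and 1.01 on the log2 scale, and Dnah7b, Dnah7c, Dnah1, Drc3, Cfap46, Cfap54, Cfap57, Cfap65, Cfap70 and Cfap74 made up the 16. Those higher in 1N cells were Cfap126, at 467 and 505 against 298 and 287 CPM (0.93 ± 0.256, adjusted p = 0.00141), Cfap100, at 110.5 and 100.5 against 52.1 and 17.7 (2.02 ± 0.388), Dnah3, at 118.1 and 100.2 against 50.5 and 21.5 (1.90 ± 0.38), and Cfap77, Cfap45, Cfap58, Dnah9 and Dnah5. Without the block the same direction held for Dnah2 (-2.28 ± 0.848, adjusted p = 0.0667) and Cfap126 (0.85 ± 1.03, adjusted p = 0.653).

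**Figure D3:**
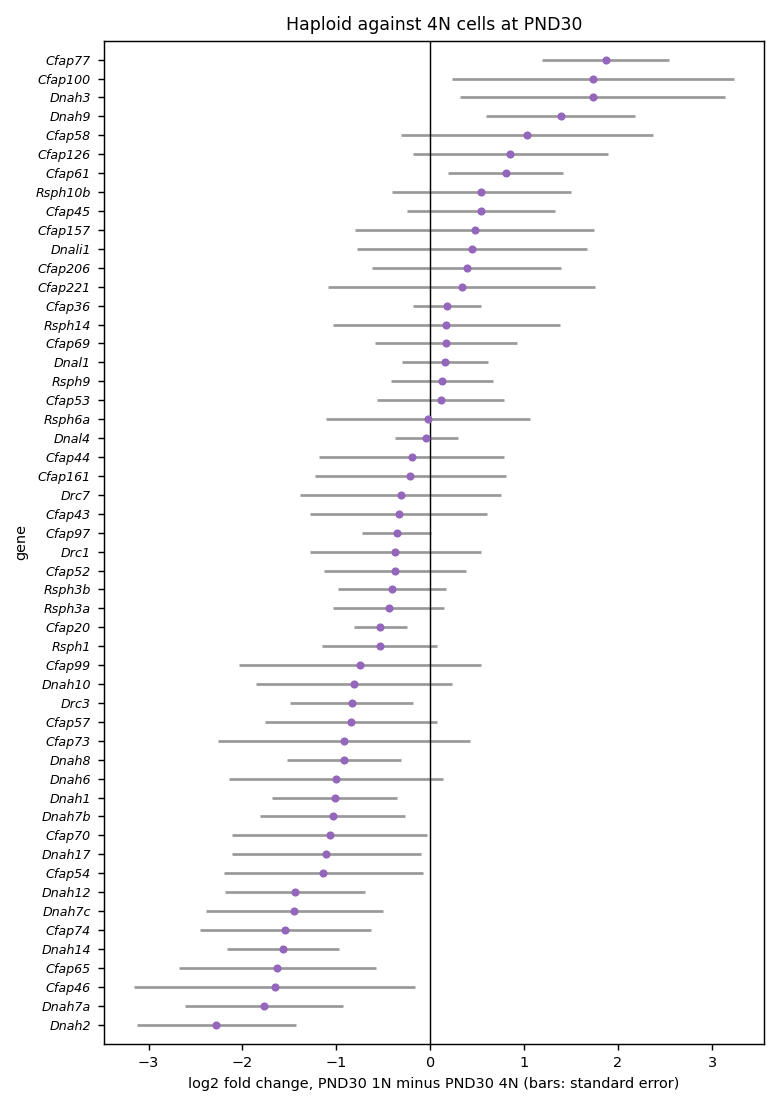
Log2 fold change of each member with a mean of at least 5 CPM in 1N or 4N cells (horizontal axis, 1N minus 4N, without the block), 1 gene a row (vertical axis), with bars for the standard error. The standard errors rest on the spread within groups over all pools of the series, not on the 1N and 4N pools alone. Genes run from Dnah2 (-2.28) among the lowest to Cfap77 (1.87) among the highest, and most bars reach 0.

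Counted by pools, both 1N pools lay above both 4N pools for 14 of the 55 members with a mean of at least 1 CPM, and below both for 30. Over all genes at that level these shares were 29.9% and 39.3%. Of the lists, fibrous sheath and outer dense fibre genes had 1 of 13 higher and 0 lower, Cabyr of the fibrous sheath rising from 107.01 to 491 CPM, and central pair and inner proteins had 1 of 16 higher. Intraflagellar transport had 6 of 26 lower and 0 higher, with Ttc30a1 from 72.3 to 11 CPM, and assembly and docking 2 of 18 lower, with Dnaaf2, a factor that folds dyneins before they are built in, from 33.04 to 5.68. Of cytoplasmic dynein genes 2 of 12 rose and 3 fell, of regulators 1 of 12 rose, and the other subunits had 0 of 11 called. Germ markers of PND30 summed to 5294 CPM in 1N and 2941 in 4N cells, and somatic markers to 34.6 and 19.9, with 1 of 4 Leydig markers lower and no other somatic marker or globin called. The 1N pools held fewer UMIs a cell, 293844 and 190973 at the median against 437045 and 301187.

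Between 2N and 1N cells of PND30 no difference in these genes was detected. Of the 56, 0 rose and 0 fell in 2N against 1N cells (edgeR), with 0 at an unadjusted p under 0.05 and 0 in DESeq2, where over all genes 0.831% rose and 0.0939% fell. The median log2 fold change was 0.09, and -0.16 with RLE scaling. With the replicate block the members again gave 0 and 0, where over all genes 1.8% rose and 1.94% fell. The 1N pools are shared with the comparison before. None of the other lists had a gene called. The 2N pools differed from spermatogonia in these genes, with a summed level of 10197 CPM against 723 at PND5, and their PND30 germ markers summed to 3776 CPM. Somatic markers summed to 46.2 CPM in 2N and 34.6 in 1N cells.

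The levels of members known from cilia and from sperm can be set side by side in the 2 waves. Both PND30 4N pools lay above all 6 prospermatogonia pools for 50 of the 55 members with a mean of at least 1 CPM, and below all of them for 3. Over all genes at that level the shares were 29% above and 51% below. Dnah5 was at 44.6 and 57.3 CPM at E18.5 and at 2.13 and 1.24 in 4N cells. Dnah11, another cilia-type heavy chain, was at 5.34 and 2.87 CPM at PND0 and at 0.0897 and 0.173 in 4N cells. Rsph4a (chr10:33905111-33916021, plus strand) was at 8.25 and 18.6 CPM at E18.5 and at 1.05 and 1.21 in 4N cells. Each of these genes was lower in both 4N pools than in both pools named around birth. Dnah9 was the exception among them, at 21.5 and 15.48 CPM at PND0, 8.45 and 5.28 in 4N and 15.8 and 17.02 in 1N cells. The sperm-type counterparts were higher in 4N cells than at E18.5: Dnah8 (chr17:30624354-30877365, plus strand) was at 34.3 and 52.1 CPM at E18.5 and at 453 and 693 in 4N cells, Dnah17 at 1.80 and 2.44 and at 104.3 and 117.3, and Rsph6a (chr7:19054690-19074447, plus strand) at 13.2 and 4.27 and at 286 and 251. Dnah5, Dnah11 and Rsph4a did not pass the test of 4N cells against PND12 and PND14, and the levels in this paragraph are given without a test, since the genes were chosen with their values known.

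**Figure D4:**
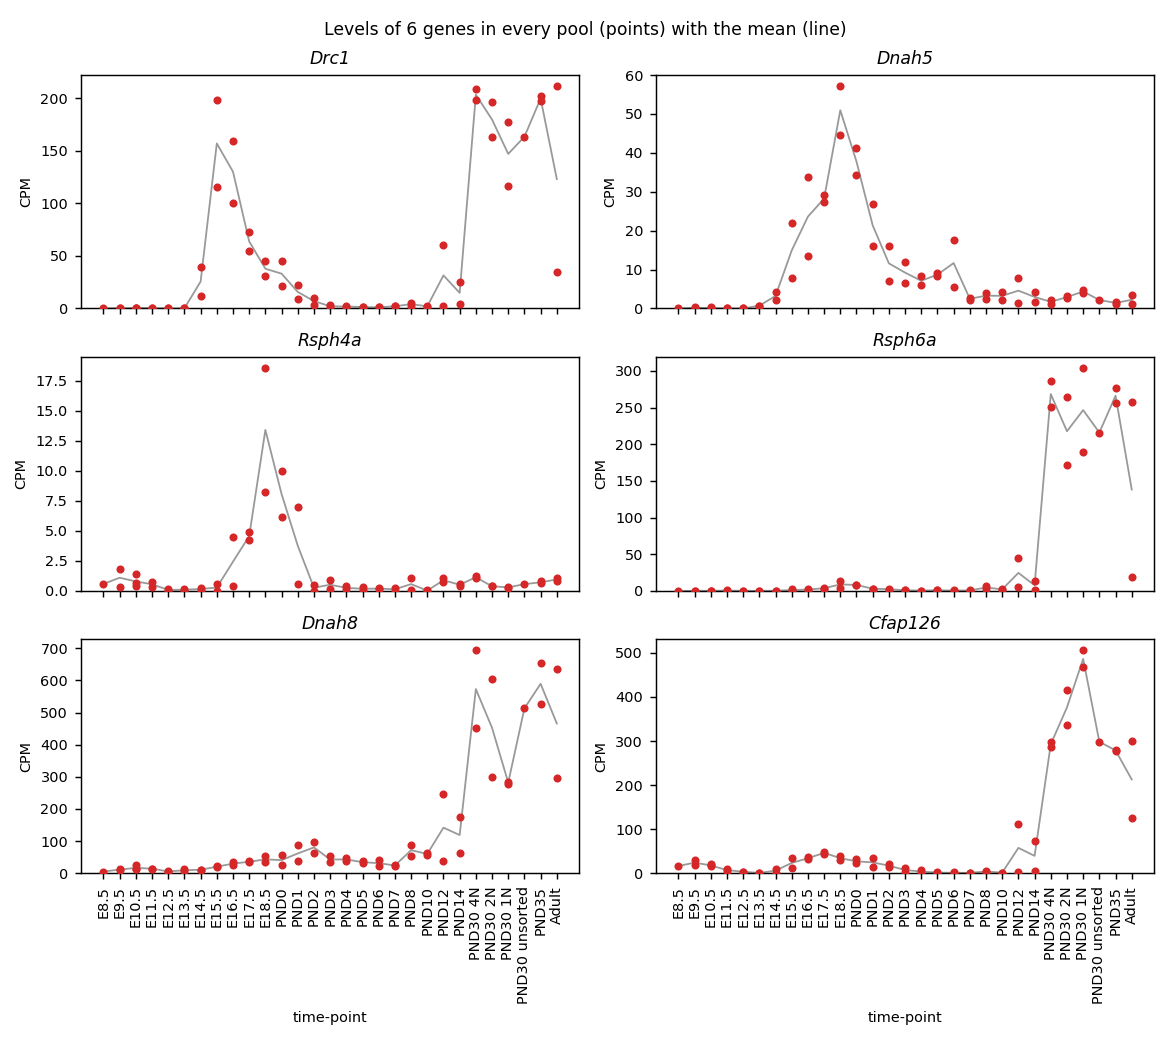
Levels of Drc1, Dnah5, Rsph4a, Rsph6a, Dnah8 and Cfap126 in CPM (vertical axes, 1 panel a gene) by time-point (horizontal axes), with a point for each pool. Dnah5 and Rsph4a peak at E18.5, Drc1 reaches 198 CPM at E15.5 and 209 in 4N cells with low levels between, and Rsph6a, Dnah8 and Cfap126 are highest from PND30 on.

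The rise before birth was seen in most germ cells of a time-point. Cells were thinned to 100000 UMIs each, and the number of the 56 genes with a UMI was counted per cell. The median was 9 genes at E12.5, 12 at E14.5, 19 at E15.5, 27 at E16.5 and 28 at E18.5 and PND0, where the middle range from the 10th to the 90th percentile was 22 to 34. Unthinned medians were 12, 16, 23, 31, 35 and 33. The median was back at 12 by PND5. At PND12 the cells were spread from 9 to 44 genes around a median of 31, and at PND14 from 9 to 36 around 17. In PND30 4N cells the median was 47 with a range of 44 to 49, in 2N cells 48, in 1N cells 46 and in adults 46 with a range of 26 to 50. Cells below the marker cut were counted at time-points other than E8.5, which had 98 of them. They gave a lower median than germ cells at every such time-point with at least 10 of them. It ran from 7 genes at PND4, PND5 and PND6 to 25 genes in the adult (19.8 to 30, with 39 cells deep enough, of 52), against 46 in adult germ cells. The median was 10 genes at PND0 (22 cells deep enough, of 37) and 9 at PND12 (54 of 76), after thinning to the same depth, with 113931 and 167876 UMIs a cell at the median against 289823 and 330134 in germ cells.

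**Figure D5:**
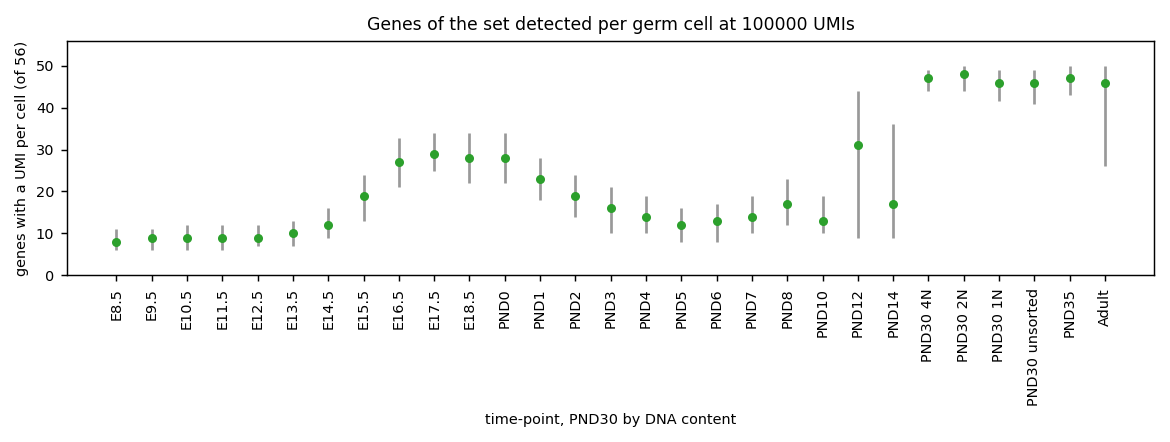
Number of the 56 genes with at least 1 UMI per germ cell after thinning to 100000 UMIs (vertical axis) by time-point (horizontal axis), with the median and the range from the 10th to the 90th percentile of cells. The range runs from 22 to 34 at E18.5 and PND0 and from 44 to 49 in 4N cells, and is widest at PND12, from 9 to 44.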

How the data were processed

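Single-cell RNA-seq libraries of mouse germ cells were made by a modified STRT-seq, with a cell barcode and a UMI on each molecule. The deposited counts are UMI counts per gene and cell. To make them the authors extracted barcodes with UMI-tools, aligned reads to mm10 with STAR, assigned them to genes with featureCounts (Subread) and removed PCR duplicates by UMI. CASAVA 1.8 is named in the submitters' processing notes. The strand setting is not given in the sources used here.

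Time-point, replicate and DNA content came from the deposited cell table, and 3392 columns (other genotypes, ages or sort gates) were not used. Cells needed over 2000 genes and 10000 to 1000000 UMIs, summed germ markers of at least 50 CPM and above the somatic markers, and globins under 10% of UMIs. Cells were placed singly in wells, and no doublet caller was run. UMIs of germ cells were summed by time-point, replicate and, at PND30, DNA content; pools needed 10 cells. Pools of 2 a group give limited precision, and p-values measure the spread between pools of a group. In the main fit this spread was estimated for each gene over all pools, not from the pools compared alone. The pools of PND12, PND14 and the adult, which did not match within their time-point, are part of it.

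One edgeR 4.0.16 model (TMM, filterByExpr, glmQLFit and glmQLFTest, R 4.3.3) held all 57 pools, with a term for each group, and Benjamini-Hochberg adjustment ran over 27676 genes, at 0.05. All 56 members were tested. Standard errors are the log2 fold change over the root of F. Ratios use 3 counts over the pools as the floor. Means are over pools with SD. The scripts were tested on simulated data.

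1N, 2N and 4N pools of a number come from 1 testis. Their deviations from the group means correlated at 0.558 (4N and 2N), 0.101 (4N and 1N) and 0.271 (2N and 1N) over 20217 genes, and a fit with the replicate block is given beside those results.

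Genes were named by rule: up to 3 of a class that passed with the largest rise or fall, without overlap of pools and with at least 5 CPM on the higher side; in levels over time the 2 highest of a class; and up to 2 of each other list. Named outside this rule were, among others, Foxj1, Rfx2 in the fetal and spermatogonia comparisons, and Cfap73 at entry into meiosis. Members, lists and tests were chosen with earlier results of these data known. The germ marker lists, used to choose cells, had 4 (up to PND14) and 6 (from PND30) of 8 rise in fetal arrest, 1 and 1 in spermatogonia, 1 and 7 at entry into meiosis, 0 and 5 in 4N cells and 1 and 1 in 1N cells. Alternatives were DESeq2 1.42.0, RLE scaling, no low-count filter, no or a stricter marker rule (germ markers 4 times the somatic), 20 cells a pool, only the pools compared, PND14 cells of 2N only, each pool left out, the block, and bias-adjusted quasi-dispersions, added after seeing the data.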

Additional observations from a re-analysis of the deposited data

How the results depend on the processing

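Against 35 members up and 1 down in fetal arrest, bias-adjusted quasi-dispersions (chosen after seeing the data) gave 21 and 0. The 2 members higher in spermatogonia became 0 with RLE scaling, without the marker rule and with DESeq2. At entry into meiosis the stricter marker rule gave 1 down in place of 0. In 4N spermatocytes 49 up became 16 with only the pools compared in the fit. For 1N against 4N cells (0 and 0), the numbers up and down were 3 and 11 with only those pools, 4 and 3 with bias-adjusted quasi-dispersions, 2 and 1 with DESeq2, and 8 and 16 with the replicate block, while RLE scaling and the stricter rule each gave 1 up. The block changed no call in 2N against 1N cells. Shares of all genes called were counted only for the main fit and the block. Counts from other fits thus do not show whether members alone or all genes lost or gained calls. The causes were not tested. Leaving out each pool gave 27 to 37 up in fetal arrest, 0 to 2 up and 40 to 44 down in spermatogonia, 25 to 47 up at entry into meiosis (25 without PND12 replicate 2), 42 to 51 up in 4N cells and 0 to 1 up in 1N cells; these fits reused the dispersion trend of all pools, and a pool left alone in its group was assumed to vary like the other groups. Of 787 values of 44 named results under the alternatives, 775 kept their direction and side of the threshold, 12 kept their direction but no longer passed, 7 of these with only the pools compared, and 0 reversed. RLE scaling moved the median log2 change of all genes from -0.65 to -0.96 in spermatogonia, from 0.26 to 0.03 at entry into meiosis and from 0 to 0.33 in 4N cells, and the members' median relative to it went from -1.69 to -1.70, from 2.39 to 2.26 and from 2.65 to 2.91. Asking for 20 cells a pool left the same 57 pools, so its values repeat the main fit and are among the 775. The named results were chosen as large changes past the threshold in the main fit, so their agreement is not an independent test. With 2 pools a side, small differences between sorted fractions could be missed. In the fit of all pools no member passed between them. The replicate block, with the same pools, passed changes down to that of Cfap45 in 1N cells (0.62, adjusted p = 0.0368, edgeR).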
